A study of Mus musculus with 2 samples.

Results

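The 9 genes described here encode laminin chains that make up most laminins of vessels, nerve, muscle and connective tissue (*Lama2*, *Lama4*, *Lama5*, *Lamb1*, *Lamb2* and *Lamc1*), both nidogens (*Nid1* and *Nid2*) and perlecan (*Hspg2*). They were chosen by name for their place in the basement membrane, and all 9 were found among the 32285 genes listed in both count matrices. Expression was measured by droplet single-cell RNA sequencing of the temporomandibular joint (TMJ), the jaw joint, of C57BL/6 mice of genotype WT, labelled as 8 to 10 weeks old. The 2 libraries came from TMJs injected with PBS, the vehicle, or with CFA (complete Freund's adjuvant, an oil emulsion of killed mycobacteria that starts a lasting inflammation). Per the study's methods the mice were female and received 10 µL into the joint at 8 weeks of age, with CFA at 5 mg/mL, and the tissue of 3 mice per library was collected 3 weeks later, with blood cells carrying CD45 depleted on magnetic beads. Because each condition is 1 pooled library, no test between PBS and CFA was possible: a CFA to PBS ratio compares those libraries, and the 95% intervals given with values cover counting error only.

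A basement membrane is a thin sheet of matrix that underlies endothelium and wraps vessel wall cells, Schwann cells and muscle. A laminin is a trimer of an alpha, a beta and a gamma chain, the alpha chain binds integrins and dystroglycan on the cell surface, and laminin polymers form the first layer of the sheet. Nidogens and the heparan sulfate proteoglycan perlecan then bind laminin and collagen IV and tie both networks together. Laminin alpha 2 is the chain of muscle and nerve whose loss causes a congenital muscular dystrophy, whereas laminins alpha 4 and alpha 5 are the chains of vessels.

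The genes lie on 8 chromosomes in GRCm38. *Lama2* is at chr10:26980036-27619758 on the minus strand, *Lama4* at chr10:38965515-39110188 on the plus strand and *Lama5* at chr2:180176373-180225859 on the minus strand. *Lamb1* spans chr12:31265234-31329644 and *Lamb2* chr9:108479736-108490530, both on the plus strand, and *Lamc1* spans chr1:153218922-153332786 on the minus strand. *Nid1* is at chr13:13437551-13512269, *Nid2* at chr14:19751265-19811787 and *Hspg2* at chr4:137468769-137570630, all on the plus strand. No other listed gene overlapped a member on its own strand.

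RefSeq promoter windows of 300 bases, from 250 bases before to 50 after the start, were matched for 6 of the 9 genes, and windows for *Lama4*, *Lamc1* and *Nid2* were not used here. The windows of *Hspg2* and *Lama5* are shown because perlecan RNA was broadly expressed and lower in the CFA library, whereas *Lama5* RNA was highest in vessel wall cells and was within 1.5-fold between the libraries there. Both are printed 5′ to 3′ on the strand of the gene, GRCm38.p6, with each GC box (GGGCGG, or CCGCCC where it reads on the other strand) in capitals. The *Hspg2* window is chr4:137468553-137468852 on the plus strand and the *Lama5* window is chr2:180225810-180226109 on the minus strand.
Hspg2: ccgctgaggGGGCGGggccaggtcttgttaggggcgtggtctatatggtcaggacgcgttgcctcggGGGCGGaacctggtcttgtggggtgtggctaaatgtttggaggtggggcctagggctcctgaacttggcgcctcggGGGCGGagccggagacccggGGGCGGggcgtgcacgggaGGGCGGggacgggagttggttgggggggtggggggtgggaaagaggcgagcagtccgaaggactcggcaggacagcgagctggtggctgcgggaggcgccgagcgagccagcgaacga
Lama5: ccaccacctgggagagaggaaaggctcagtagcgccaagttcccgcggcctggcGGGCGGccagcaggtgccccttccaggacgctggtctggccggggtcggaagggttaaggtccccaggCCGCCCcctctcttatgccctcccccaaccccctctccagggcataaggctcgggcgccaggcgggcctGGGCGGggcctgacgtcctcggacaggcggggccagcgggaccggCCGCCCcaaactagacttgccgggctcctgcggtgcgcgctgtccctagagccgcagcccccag
The *Hspg2* window held 5 GC boxes at 70.3% GC and the *Lama5* window held 4 at 72.7% GC. A GC box stood in 35.7% of 32851 RefSeq promoter windows of the same length, and 4 or more stood in 5.49%. *Lamb1* had 2 boxes, *Lama2* and *Nid1* had 1 each and *Lamb2* had 0, and the letters TATAAA, present in 13.6% of all windows, were found in none of the 6. These matches describe letters in a window and were not tied to the expression values.

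After limits of at least 500 genes, at most 10% mitochondrial and at most 1% hemoglobin UMIs (unique molecular identifiers, counted RNA molecules), 2667 PBS and 4014 CFA cells were kept, with 27201994 and 44432717 UMIs and medians of 7022 and 6509.5 per cell. The members together held 40075 UMIs in PBS and 37639 in CFA. Hemoglobin took 20.7% of all PBS and 7.90% of all CFA UMIs before the limit, which left out 54.4% of PBS and 7.79% of CFA cells that met the other limits, and the libraries shared 10 barcodes. Clusters were called by canonical markers, each cluster of a compared class held at least 4 of the markers listed for that class, and 9 classes had at least 50 cells in both libraries: endothelial-, fibroblast-, Schwann-, mural-, tenocyte-, satellite cell-, chondrocyte-, B cell- and neutrophil-like. Orders of levels below are among these 9 classes: smaller classes could be higher, as perineurial-like cells were in PBS for *Lama4* (824), *Lamb2* (387), *Nid1* (624) and *Nid2* (275). The neutrophil-like cluster led by *Camp* and *Ngp* had 47 of 70 PBS and 150 of 352 CFA cells of the class. The one led by *Il1r2* and *Retnlg* had 15 and 181. The *Camp* cluster held most UMIs of the class in both libraries (625666 of 746642 in PBS and 2372755 of 3077419 in CFA). A level below is the UMIs of a gene summed over the cells of a class per 1000000 UMIs of those cells, abbreviated CPM. It comes from 3′ counts and was not divided by gene length.

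Blood cells are not wrapped in a basement membrane, and their levels are given for comparison. In PBS neutrophil-like cells the levels were 117 CPM for *Lama2*, 87.1 for *Hspg2*, 41.5 for *Nid1* and 36.2 for *Lama4*, against 16.2, 3.25, 2.60 and 4.87 in CFA. These UMIs sat in few barcodes. Of 87 *Lama2* UMIs in 70 PBS neutrophil-like cells, 3 cells held 73, and 86 lay in the 13 cells (18.6%) that also carried at least 4 markers of a class of another lineage, called mixed cells here. In CFA, 12 of 352 neutrophil-like cells (3.41%) were mixed and they held 41 of the 50 *Lama2* UMIs. Mixed cells were more frequent in PBS than in CFA in 8 of the 9 compared classes by point value, for example 5.96% against 3.36% of endothelial-like and 30.7% against 20.6% of mural-like cells, and were less frequent in PBS among satellite cell-like cells (8.77% against 11.5%). Each member's ratio was therefore also taken without mixed cells, without the 3 cells of each library that held most UMIs of the gene, and with the neutrophil-like level of the same library subtracted. That level is the mean of few mixed cells and many cells at 0, not a background that each cell shares, and it is higher in PBS for every member, so its subtraction raised all 124 ratios that it left with a value. It is shown as a limit and not as a correction.

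*Lama2*, the alpha chain of muscle and nerve basement membranes, had more UMIs than any other member in satellite cell-like cells, the stem cells of muscle. Its level there was 1488 CPM in PBS and 2227 in CFA, and it was detected in 57 of 57 PBS and 87 of 87 CFA cells. In neutrophil-like cells 12.9% and 2.84% of cells held a *Lama2* UMI, at median depths of 7971 and 4492 UMIs against 6427 and 6847 in satellite cell-like cells. Fibroblast-like cells followed in PBS with 854 (interval of the ratio to the next class 1.32 to 1.53), then Schwann-like cells with 601 and tenocyte-like cells with 495. Endothelial-like cells had 15.6 in PBS and 8.31 in CFA, under the neutrophil-like PBS level of 117.

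*Lama4*, the alpha chain laid down by endothelium and by many mesenchymal cells, had a flatter pattern. In PBS it was highest in endothelial-like cells at 369 CPM, and Schwann-like (274), mural-like (242) and fibroblast-like cells (228) came next, with neighbouring intervals that included 1 between the last 3. In CFA fibroblast-like (312), Schwann-like (299) and endothelial-like cells (293) led without separating from one another. Satellite cell-like cells had 12.9 and 15, where *Lama2* was at 1488 and 2227.

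*Lama5*, the alpha chain of mature vessel walls, was led by mural-like cells, the smooth muscle and pericytes of vessels, with 128 CPM in PBS and 149 in CFA. Endothelial-like cells had 54.6 and 59.6, 2.34-fold lower in PBS (interval 1.97 to 2.77) and 2.49-fold lower in CFA (2.15 to 2.89). Within the mural-like class it was mostly in the cluster led by *Myh11* and *Kcnab1*, where 82.8% of PBS and 79.4% of CFA cells held a UMI. The cluster led by *Actg2* and *Rgs5* had 27.5% and 23.5%, and the neutrophil-like class had 4.29% and 0 of 352 cells. Fibroblast-like cells had 7 UMIs in PBS and 3 in CFA.

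The beta chains were highest in different classes, while endothelial-like (*Lamb1* 116 and *Lamb2* 104 CPM in PBS) and fibroblast-like cells (141 and 186) held both. *Lamb1* was highest in Schwann-like cells at 336 CPM in PBS and 331 in CFA, 2.38-fold and 2.40-fold above the fibroblast-like class that came next (intervals 2.13 to 2.67 and 2.15 to 2.67). *Lamb2*, which also enters the laminins of the neuromuscular junction, was highest in mural-like cells at 292 and 199. Schwann-like cells had 40.6 and 30.8 CPM of *Lamb2*, and chondrocyte-like cells had *Lamb2* (66.1 and 44.3) with 12 and 2 *Lamb1* UMIs in all.

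*Lamc1*, the gamma chain shared by nearly all laminins of these tissues, ran over the 7 tissue classes from 38.8 to 378 CPM in PBS and from 25 to 363 in CFA. Satellite cell-like cells led in PBS, Schwann-like cells led in CFA, and endothelial-, fibroblast- and mural-like cells lay between 173 and 297. In B cell-like cells it stood above the neutrophil-like level (33.5 and 11.7), with 121 in PBS and 136 in CFA and a UMI in 34.9% and 38.3% of cells against 14.3% and 6.53% of neutrophil-like cells, at median depths of 3734 and 4036 against 7971 and 4492.

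*Nid1*, the more abundant nidogen in 8 of the 9 classes in PBS, was highest in fibroblast-like cells, with 550.2 CPM in PBS and 457 in CFA, 2.97-fold and 3.03-fold above the endothelial-like class. *Nid2* had lower counts and a different order, with chondrocyte-like cells first by point value at 73.6 and 60.5. *Nid1* in those cells was at 34.1 and 6.78. In PBS the *Nid2* interval of chondrocyte- over endothelial-like cells, 0.945 to 1.47, included 1. There 3 of 57 chondrocyte-like cells held 54 of 108 *Nid2* UMIs. Without the 3 highest cells of each class the PBS levels were 42.2 in chondrocyte- and 59.9 in endothelial-like cells. *Hspg2*, a component of cartilage matrix as well as of basement membranes, was highest in endothelial-like cells at 693 and 442. Chondrocyte-like cells had a level near that (449.6 and 411), and in CFA the interval of endothelial- over chondrocyte-like cells, 0.993 to 1.16, included 1.

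**Figure D1:**
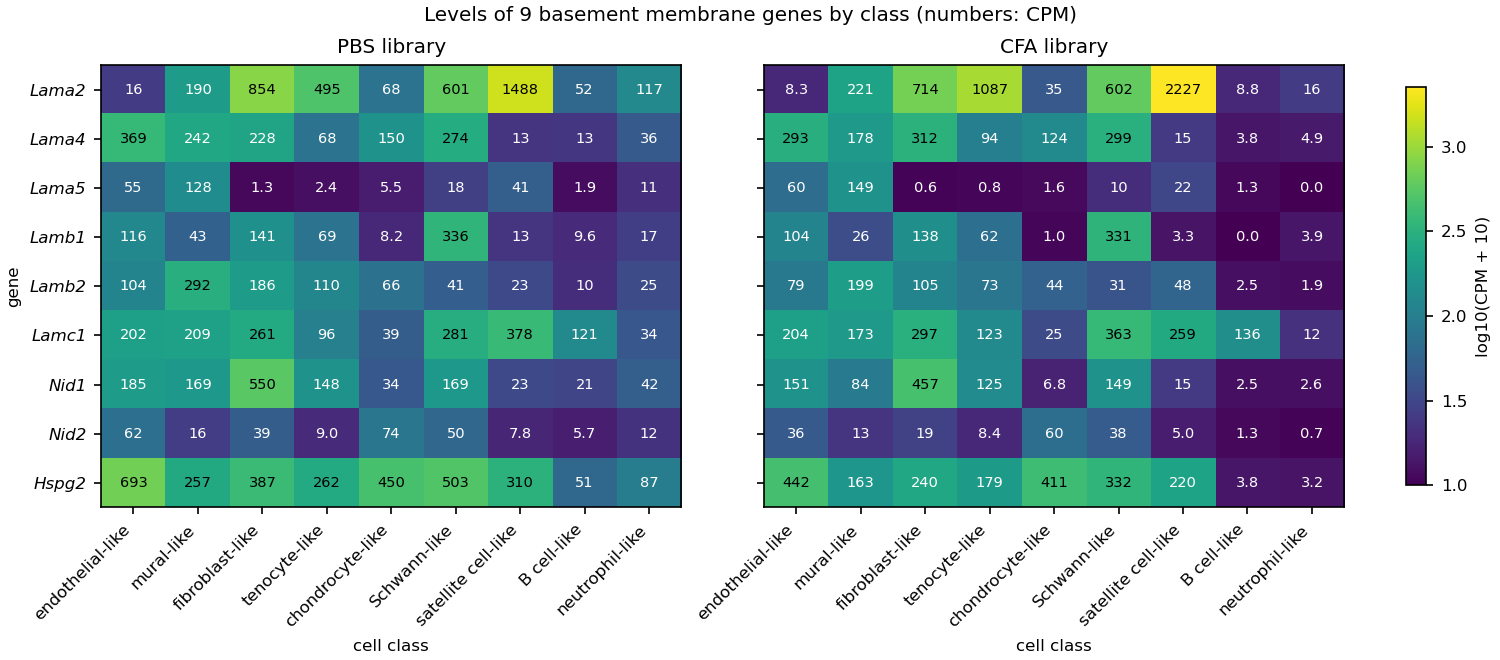
Heat map of the 9 genes (rows) in 9 cell classes (columns) of the PBS (left) and CFA (right) library, coloured by log10(CPM + 10), with the level in CPM printed in each cell. Lama2 reached 1488 and 2227 in satellite cell-like cells, Hspg2 was high in most tissue classes, Lama5 was high in mural-like cells, and the PBS column of neutrophil-like cells was above its CFA column for every gene.

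The classes differed in which alpha chain gave most UMIs. Shares were taken between chains without a length correction. If intronic reads were counted, which the sources used here do not say, a long gene such as *Lama2* gains UMIs, so a share is compared between classes and libraries and is not a share of protein chains. *Lama2* supplied 96.5% of alpha chain UMIs in PBS and 98.4% in CFA satellite cell-like cells, 67.2% and 65.4% in Schwann-like cells, 77.9% and 69.0% in fibroblast-like cells and 83.5% and 90.9% in tenocyte-like cells. *Lama4* supplied 74.5% and 60.0% in endothelial-like cells. As a class, mural-like cells had 3 chains: in PBS 40.2% of their alpha chain UMIs were *Lama4*, 31.6% *Lama2* and 21.2% *Lama5*, and in CFA the shares were 31.2%, 38.8% and 26.1%. In CFA 3 of 223 cells held 148 of the 501 *Lama2* UMIs. The class blends 2 clusters that differed. *Lama2* had 285 and 423 CPM in the *Actg2* cluster and 126 and 142 in the *Myh11* cluster, where *Lama5* had 188 and 192 against 37.3 and 39.2 in the *Actg2* cluster. *Lama4* also led in chondrocyte-like cells (67.1% and 76.0%). At a resolution of 0.8 the share was 23.0% and 19.1%, but the class was not the same. It then had 212 PBS and 195 CFA cells, against 57 and 87, and no tenocyte-like class was named beside it. That setting therefore cannot decide whether the lead of the smaller class holds.

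The lower *Lama4* share of CFA endothelial-like cells went with *Lama3*, an alpha chain otherwise best known from epithelium and not a member. *Lama3* had 55.8 CPM in PBS and 128 in CFA, a ratio of 2.29 (2.01 to 2.61), and took 11.3% and 26.1% of alpha chain UMIs. Its share was higher in CFA in arterial (33.9% and 49.9%), capillary (4.91% and 20.1%) and venular endothelial-like cells (12.8% and 19.7%). *Lama5* gave 11.0% and 12.2%.

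Beta chain UMIs were *Lamb1* for 89.1% and 90.9% in Schwann-like cells and *Lamb2* for 87.1% and 88.6% in mural-like cells, and 95.8% and 95.7% were *Lamb2* in the *Myh11* cluster. Satellite cell-like cells held few beta chain UMIs of either kind, 14 in PBS and 32 in CFA, which is 2.35 per 100 alpha chain UMIs in both libraries. Schwann-like cells had 42.1 and 39.5 per 100, and mural-like cells 55.7 and 39.5. In fibroblast-like cells *Lamb2* led in PBS (56.5%) and *Lamb1* in CFA (56.8%).

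**Figure D2:**
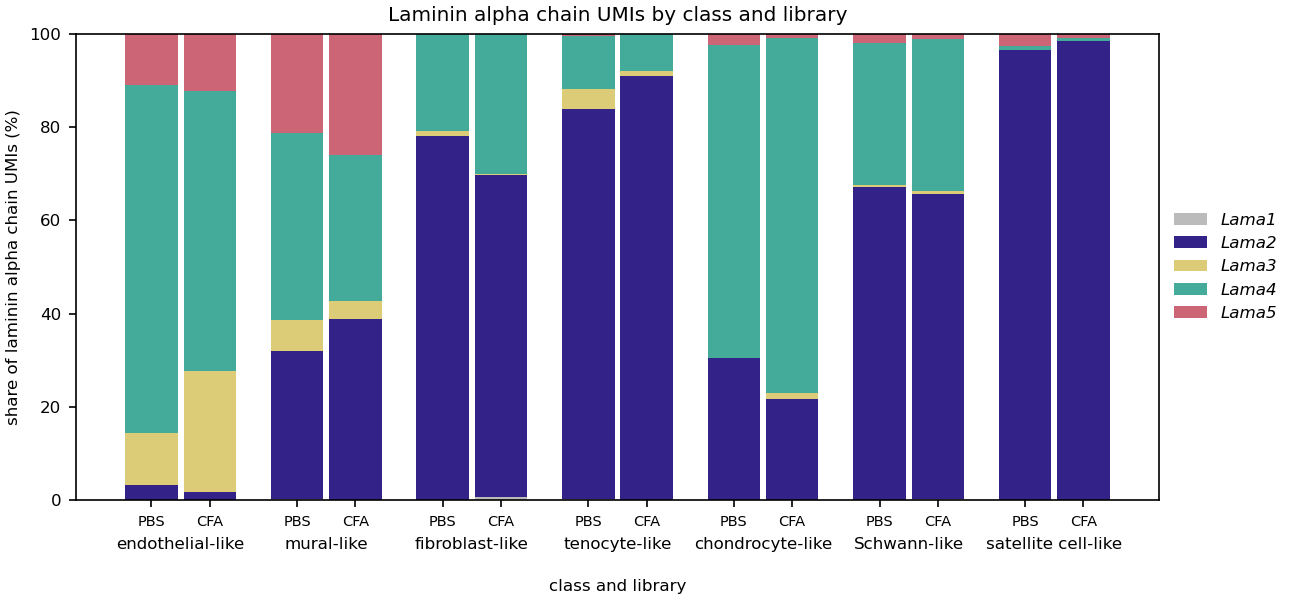
Stacked bars of the share (%) of laminin alpha chain UMIs from Lama1 to Lama5 in 7 classes, with PBS and CFA bars side by side. Lama2 filled 96.5% and 98.4% in satellite cell-like cells, Lama4 74.5% and 60.0% in endothelial-like cells, and mural-like cells were divided between Lama2, Lama4 and Lama5.

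Between the libraries, a difference of at least 1.5-fold in a class with at least 20 UMIs of the gene over both was taken as the size to name. Of 81 pairs of a member and a class, 66 had enough UMIs, and 2 were higher in CFA, 26 were lower and 38 were within 1.5-fold. Without the neutrophil- and B cell-like classes, 55 pairs were left, of which 2 were higher and 16 lower. Without mixed cells 6 were higher and 16 lower of 57 pairs. With the neutrophil-like level subtracted, which moves ratios upward by construction, 10 were higher and 2 lower of 50. The share of all genes past the same threshold is given beside the count of each class and endothelial subset below, and the share of members is read against it.

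In endothelial-like cells 0 of 9 members were higher and 3 were lower, where 11.5% of all genes tested were higher and 14.1% lower. The median log2 ratio of the members was -0.33, against 0.00 for all genes. *Hspg2* had 693 and 442 CPM, a ratio of 0.638 (0.608 to 0.669), and *Nid2* had 62.2 and 35.9, a ratio of 0.576 (0.488 to 0.679). Without mixed cells these ratios were 0.611 and 0.527, and with the neutrophil-like level subtracted 0.724 and 0.702. The lower *Lama2* value (0.531) lay in few cells: the 45 mixed cells of PBS held 84 of its 92 UMIs, and without mixed cells the ratio was 2.13.

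Mural-like cells had 0 of 9 members higher and 3 lower, against 10.3% and 12.2% of all genes, with a median log2 ratio of -0.44 against -0.01. *Nid1* had 169 and 83.8 CPM, a ratio of 0.495 (0.412 to 0.594), and its value was 0.451 without mixed cells, 0.635 with the neutrophil-like level subtracted and 0.481 without the 3 highest cells. *Lamb1* (43.2 and 25.6) had a ratio of 0.592 and *Hspg2* (257 and 163) one of 0.635, which subtraction moved to 0.840 and 0.942. The *Nid1* ratio was further from 1 in the *Myh11* cluster (109.8 and 36.8, ratio 0.335, interval 0.243 to 0.459) than in the *Actg2* cluster (258 and 204, ratio 0.788, interval 0.627 to 0.987), a difference that was not tested over replicates. *Lama5* was within 1.5-fold, at 1.16 (0.986 to 1.38).

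Fibroblast-like cells had 0 of 8 members with enough UMIs higher and 3 lower, against 13.3% and 13.8% of all genes, with medians of -0.26 and -0.02. *Lamb2* had 186 and 105 CPM, a ratio of 0.564 (0.508 to 0.625). The ratio was 0.589 without mixed cells and 0.641 with the neutrophil-like level subtracted. In the adventitial subset, whose markers include *Pi16* and *Dpp4*, *Lamb2* had 231 and 93.8, a ratio of 0.406 (0.349 to 0.472). *Lamb2* was within the threshold in sublining cells (0.806, 0.655 to 0.987) and in the cluster led by *Angptl1* and *Cilp* (0.682, 0.547 to 0.844). *Nid2* had 38.9 and 19.3, a ratio of 0.496. In the sublining subset, led by *Apod*, *Inmt* and *Gdf10*, it had 71.0 and 29.4, a ratio of 0.414 (0.277 to 0.605). The *Nid2* ratio was 0.345 (0.118 to 0.828) in the *Angptl1* cluster, on 35 and 6 UMIs. In adventitial cells it was 0.685, with an interval of 0.467 to 1.01 that included 1. *Hspg2* had 387 and 239.6, a ratio of 0.619 that subtraction moved to 0.788. *Lama4* went the other way within the threshold, at 228 and 312, a ratio of 1.37 (1.27 to 1.47), and was detected in 71.5% of PBS and 82.0% of CFA cells. Its ratio was lower within each subset, at 1.07 (0.967 to 1.18) in adventitial, 1.24 in *Angptl1* cluster and 1.29 in sublining cells, and adventitial cells, with the highest *Lama4* level, were 134 of 498 PBS and 165 of 367 CFA fibroblast-like cells.

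*Nid1* in fibroblast-like cells (0.831) covered unequal subsets. It was 909.6 and 580.2 CPM in adventitial cells, a ratio of 0.638, and 97.0% of those cells in each library held a UMI. In the cluster led by *Angptl1* and *Cilp* it was 200.1 and 88.1, a ratio of 0.440 (0.344 to 0.558), and in sublining cells 569 and 418, a ratio of 0.734. Each of these subset ratios lay below the class value. Adventitial cells, with the highest *Nid1* level of these subsets, were 134 of 498 PBS and 165 of 367 CFA fibroblast-like cells. Without mixed cells the adventitial ratio was 0.694, inside the threshold, while the *Angptl1* cluster stayed at 0.438.

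Among Schwann-like cells, the glia that wrap nerve fibres in a basement membrane, 0 of 9 members were higher and 2 lower, against 16.4% and 9.0% of all genes. *Lama2* was at 601 and 602 CPM, a ratio of 1.0 (0.916 to 1.09), and *Lamb1* at a ratio of 0.985 (0.874 to 1.11). *Lamc1* had 281 and 363, a ratio of 1.29 (1.14 to 1.46). *Hspg2* (503 and 332, ratio 0.662) was within 1.5-fold in the myelinating subset, with 491 and 409.9 and a ratio of 0.835, and had 623 and 291 in the 43 PBS and 38 CFA nonmyelinating cells. The class also held a cluster led by *Fabp7* and *Ncam2*, with 3 PBS and 16 CFA cells. That cluster gave 36450 of 1528174 PBS and 349776 of 1816837 CFA UMIs of the class. All Schwann-like class values, those of *Lama2* and *Lamb1* included, cover this unequal mix, and its part in the ratios was not tested. *Lama5*, at 0.592, rested on 27 and 19 UMIs with an interval of 0.311 to 1.10.

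In satellite cell-like cells 1 of 5 members with enough UMIs was higher and 1 lower, against 17.1% and 20.3% of all genes. *Lama2* had a ratio of 1.5 (1.36 to 1.65) that lay just inside the threshold before rounding, and it ranged from 1.24 (cells thinned to 1000 UMIs) to 1.61 (neutrophil-like level subtracted) over 12 alternatives. *Lamc1* had 378 and 259, a ratio of 0.687, and *Hspg2* had 310.5 and 219.5, a ratio of 0.707. The 2 calls, *Lamb2* higher on 9 and 29 UMIs and *Lama5* lower on 16 and 13, had intervals that included 1.

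Tenocyte-like cells had 1 of 8 members with enough UMIs higher and 1 lower, against 11.4% and 13.7% of all genes. The higher member was *Lama2*, with 495 and 1087 CPM, a ratio of 2.20 (2.03 to 2.38). Only 55.1% of CFA cells held a *Lama2* UMI, against 74.2% in PBS, and of 1427 CFA UMIs 903 lay in 3 of the 107 cells, 553 of them in 1 cell. Without the 3 highest cells of each library the levels were 407 and 452, a ratio of 1.11, the mean over cells gave 1.24 and thinning each cell to 1000 UMIs gave 1.0, so no direction is read from it. *Lamb2* had 110.2 and 73.1, a ratio of 0.664 (0.518 to 0.845), which subtraction moved to 0.840.

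**Figure D3:**
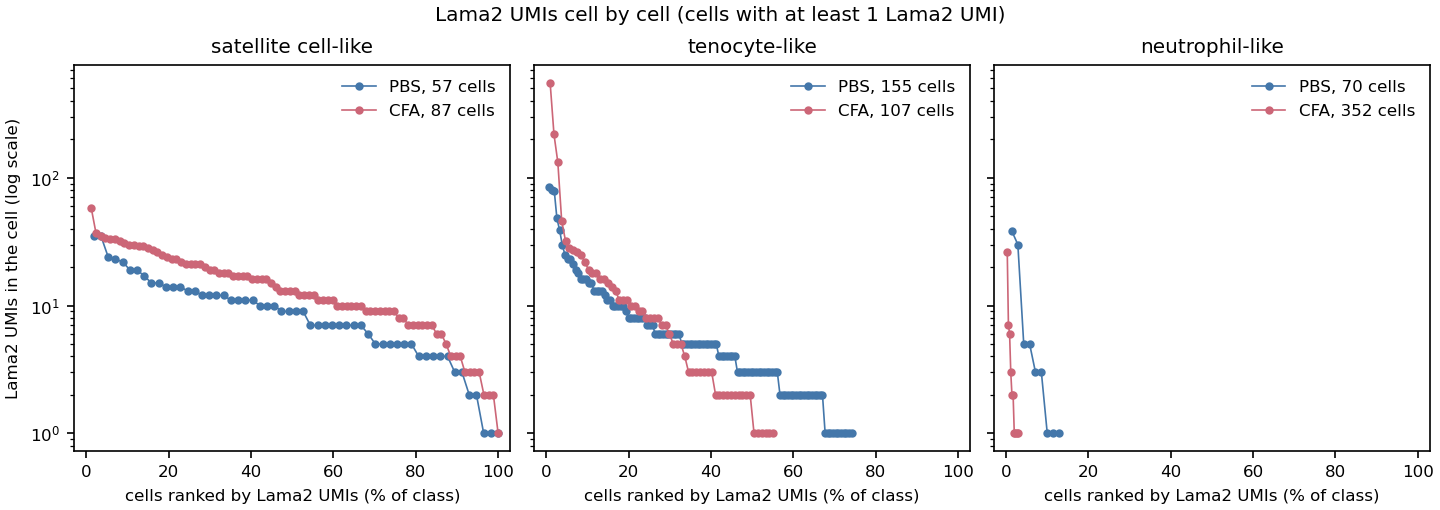
Lama2 UMIs in each cell that held at least 1 (log scale), with cells ranked from the highest along the x axis as a percent of all cells of the class, in PBS (blue) and CFA (red). All satellite cell-like cells held Lama2, whereas in tenocyte-like cells 1 CFA cell held 553 UMIs and in neutrophil-like cells the UMIs sat in 9 of 70 PBS and 10 of 352 CFA cells.

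Chondrocyte-like cells had 0 of 7 members with enough UMIs higher and 3 lower, against 13.5% and 16.8% of all genes, with medians of -0.58 and -0.06. *Nid1* was at 34.1 and 6.78 CPM, a ratio of 0.199 (0.0991 to 0.372) on 50 and 13 UMIs. *Lama2* (0.520) and *Lamc1* (0.644) were the others. The *Lama2* ratio was 1.55 as a mean over cells and 0.453 without mixed cells. At a resolution of 0.8 it was 1.44, in a class of 212 PBS and 195 CFA cells with no tenocyte-like class named beside it. *Hspg2*, the member with most UMIs there, was at a ratio of 0.915 (0.824 to 1.02).

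In the blood classes every called member was lower in CFA: 7 of 7 in neutrophil-like cells, where 17.6% of all genes were higher and 25.2% lower, and 3 of 4 in B cell-like cells, where 10.3% were higher and 12.4% lower. The medians were -2.89 and -2.81, against -0.11 and 0.01 for all genes. The B cell-like *Hspg2* level was 50.7 in PBS and 3.77 in CFA, and 47 of its 53 PBS UMIs lay in 9 mixed cells. *Lamc1* in B cell-like cells, had a ratio of 1.13 (0.863 to 1.47), and 1.19 without mixed cells.

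**Figure D4:**
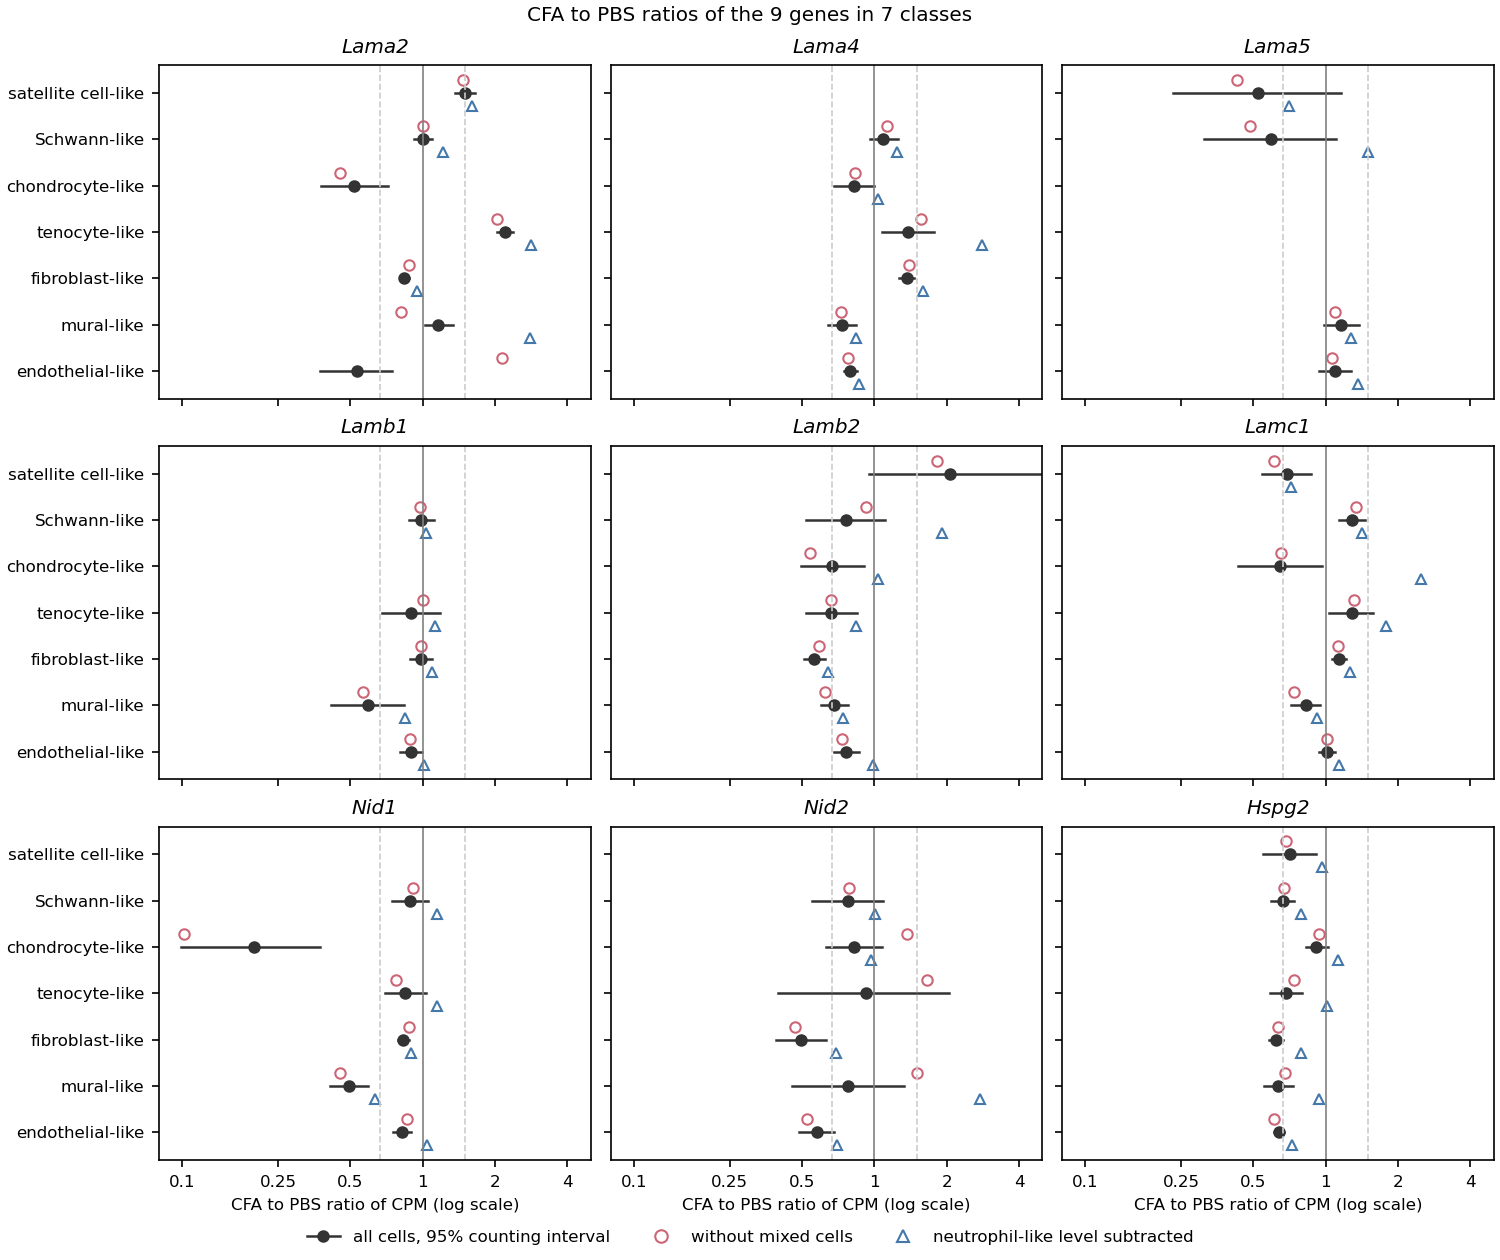
CFA to PBS ratios of CPM (log x axis) of the 9 genes in 7 tissue classes, with 95% counting intervals (black), the ratio without mixed cells (open circles) and the ratio with the neutrophil-like level of the same library subtracted (open triangles); pairs under 20 UMIs are not drawn, dashed lines mark 1.5-fold, and the Lamb2 interval of satellite cell-like cells (0.955 to 4.97) fills the axis to its edge. Hspg2 lay below 1 in all 7 classes (0.619 to 0.915) and, without mixed cells, between 0.611 and 0.938, while Lama2 in tenocyte-like cells lay at 2.20.

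*Hspg2* had a ratio below 1 in all 9 classes and was at least 1.5-fold lower in 6 of them, 2 of which are the blood classes. In those 6 classes 9.0% to 25.2% of all genes were at least 1.5-fold lower. *Nid1* was also below 1 in each of the 8 classes where it had enough UMIs, as were *Lamb1* and *Nid2* in 6 classes each. The *Nid1* classes include both blood classes, and the *Lamb1* classes include the neutrophil-like one. How many of all genes lay below 1 in as many classes was not counted, so these counts only describe the members. The share of endothelial-like cells with an *Hspg2* UMI went the same way, at 89.5% and 76.4%. After thinning each cell to 1000 UMIs it was 50.5% and 33.1% (12 and 2 shallower cells left out). Neutrophil-like cells had 17.1% and 2.56%, or 6.06% and 0.592% after thinning. Without mixed cells the *Hspg2* ratio was 0.611 in endothelial-, 0.631 in fibroblast-, 0.673 in Schwann-, 0.674 in mural-, 0.684 in satellite cell-, 0.736 in tenocyte- and 0.938 in chondrocyte-like cells, close to the values with all cells. With the neutrophil-like level subtracted it was 0.724 to 1.13 over these 7 classes.

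Within endothelial-like cells the subsets parted. Arterial endothelial-like cells had 1 of 9 members higher and 2 lower, against 14.8% and 15.9% of all genes. Capillary endothelial-like cells had 0 of 9 higher and 3 lower, against 13.8% and 19.4%, and venular endothelial-like cells had 1 of 9 higher and 2 lower, against 12.1% and 15.1%. *Lamb1* was lower in CFA in capillary cells, with 133 and 65.8 CPM and a ratio of 0.495 (0.416 to 0.587), and in arterial cells, with 66.9 and 33.5 and a ratio of 0.501 (0.333 to 0.744). In venular cells, the vessels through which leukocytes leave the blood, it was higher, with 114 and 177 and a ratio of 1.55 (1.29 to 1.86). The intervals of the venular and capillary ratios did not overlap, and the difference was not tested over replicates.

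The *Lamb1* ratios of these subsets stayed past 1.5-fold without mixed cells (capillary 0.488, arterial 0.552, venular 1.56), with subtraction (0.536, 0.599 and 1.78) and without the 3 highest cells (0.480, 0.415 and 1.66). Thinned to 1000 UMIs per cell, the capillary ratio was 0.583, the arterial one 0.739, inside the threshold, and the venular one 0.958. The share of cells with a *Lamb1* UMI was 44.3% and 19.5% in capillary cells and 52.9% and 59.7% in venular cells, at median depths of 4918 and 3740.0 in capillary and 11215 and 12553 in venular cells, and after thinning it was 10.7% and 6.47% and 10.6% and 9.39%. Mixed cells were 25 of 104 PBS and 7 of 181 CFA venular cells and held 68 of 164 and 30 of 480 *Lamb1* UMIs. As a share of beta chain UMIs, *Lamb1* went from 57.6% to 41.6% in capillary and from 56.0% to 79.7% in venular cells, where *Lamb2* had 88.4 and 44.9 CPM and a ratio of 0.508 (0.393 to 0.656).

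*Nid2* was past the threshold in capillary cells and in neither of the other endothelial subsets, with 74.5 and 25.4 CPM, a ratio of 0.340 (0.259 to 0.443), and 0.322 to 0.395 over 11 alternatives. Arterial cells had 42.2 and 40.9 (0.970) and venular cells 48.7 and 44.9 (0.921), with intervals that included 1. *Hspg2* was lower in arterial (511 and 253, ratio 0.494) and capillary cells (789 and 481, ratio 0.610) and within the threshold in venular cells (607 and 485, ratio 0.799). Of the members *Lama4* was at 0.746 in capillary, 0.880 in arterial and 0.899 in venular cells, and *Lamc1* at 1.06, 0.962 and 0.932.

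**Figure D5:**
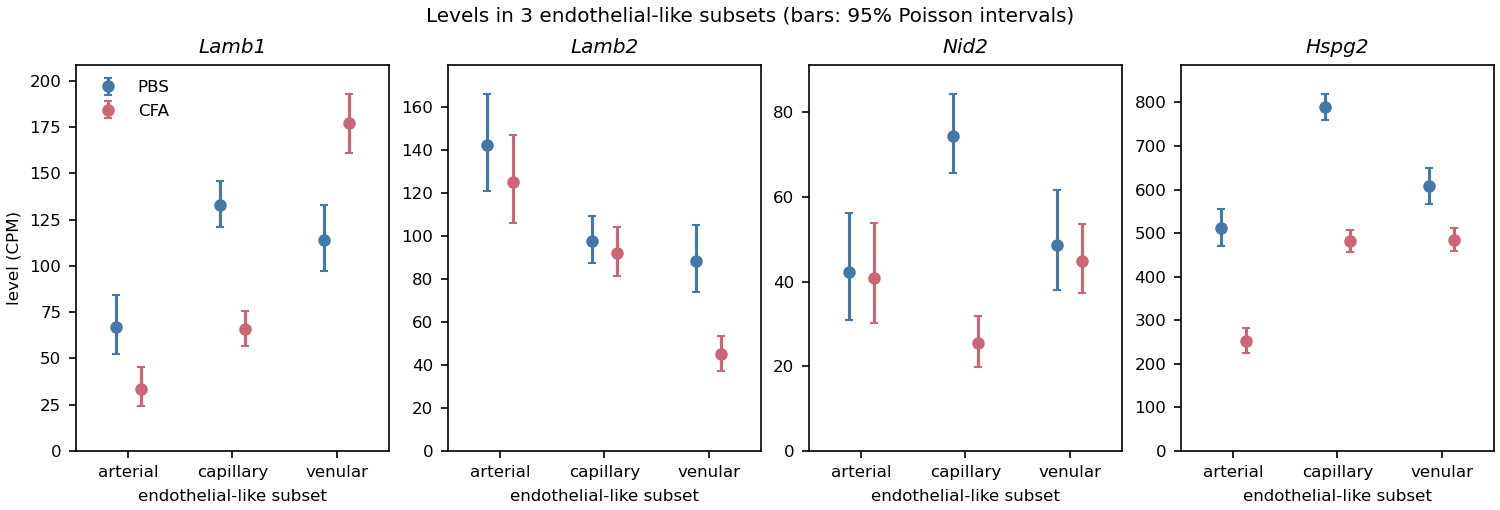
Levels (CPM) of Lamb1, Lamb2, Nid2 and Hspg2 in arterial, capillary and venular endothelial-like cells of the PBS (blue) and CFA (red) library, with 95% Poisson intervals of the summed counts. Lamb1 was higher in PBS in arterial and capillary cells and higher in CFA in venular cells (114 and 177), and Nid2 separated in capillary cells (74.5 and 25.4).

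Over the 7 tissue classes 18 calls were made, and 15 of them stayed past 1.5-fold without mixed cells, 14 without the 3 highest cells and 3 with the neutrophil-like level subtracted, which gave a value for 14. Of the 18, 2 stayed under all 3 settings: *Lamb2* in fibroblast-like and *Nid1* in mural-like cells, both lower in CFA. Over the 9 subsets 22 calls were made and 9 stayed under all 3 settings, namely *Lamb1* in the 3 endothelial subsets, *Nid2* in capillary and sublining cells, *Hspg2* in arterial cells, *Lamb2* in adventitial cells, and *Nid1* in the *Angptl1* and *Myh11* clusters. All but the venular *Lamb1* were lower in CFA. Since subtraction moves ratios upward, it is a strict condition for the lower calls and none for the venular one. Thinning to 1000 UMIs per cell, not among the 3 settings, left 8 of the 18 class calls and 11 of the 22 subset calls past 1.5-fold. It moved arterial *Lamb1* (0.739), venular *Lamb1* (0.958) and sublining *Nid2* (0.708) inside the threshold, while the other named calls stayed past it. Shares of all genes were taken for the classes and the endothelial subsets, not for the other subsets. No such share was taken for calls that stayed under the 3 settings, so these counts only describe the members.

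The wider basement membrane list held 32 other genes (other laminin chains, collagen IV chains, further components, and the integrins, dystroglycan and *Bcam* as receptors). Its ratios are given for all cells only, without the alternatives used for the members. In endothelial-like cells 7 of 25 with enough UMIs were higher and 4 lower, against 11.5% and 14.1% of all genes. With at least 50 UMIs, the higher ones were *Col18a1*, whose product releases endostatin (44 and 134 CPM, ratio 3.03), *Lama3* (2.29), and the laminin and collagen receptor subunits *Itga3* (2.32), *Itga2* (1.99), *Itgb4* (1.63) and *Itga1* (738 and 1156, ratio 1.57), and the lower ones were *Sparc* (3509 and 1338, ratio 0.381) and *Ntn4* (0.629). *Sparc*, a collagen-binding matrix protein, was also at 0.125 in neutrophil-like and 0.104 in B cell-like cells.

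In fibroblast-like cells 3 of 29 were higher and 13 lower, against 13.3% and 13.8% of all genes. The lower ones with at least 50 UMIs included the collagen IV chains *Col4a5* (92.4 and 27.4, ratio 0.297), *Col4a6* (0.368) and *Col4a4* (0.422), *Col15a1*, a collagen that bridges the membrane to the fibres around it (302 and 126, ratio 0.417), *Lama3* (0.174), *Tinagl1* (0.410), *Itga6* (0.509), *Sparc* (0.610), *Pxdn* (0.661) and *Itga2* (0.665). Mural-like cells had 4 of 27 higher and 7 lower (10.3% and 12.2% of all genes), with *Itga6*, a laminin receptor subunit, at 135 and 49.8 (0.368), *Fbln2* at 0.376, *Npnt* at 0.408, *Col15a1* at 0.476, *Pxdn* at 0.538, *Lama3* at 0.549, *Sparc* at 0.610, *Itga3* at 1.86 and *Smoc2* at 2.37. Schwann-like cells had 4 of 23 higher and 6 lower (16.4% and 9.0% of all genes), led by *Fbln2* (38.6 and 183, ratio 4.75), with *Smoc1* (2.11) and *Hmcn1* (1.86) also higher and *Smoc2* (0.172), *Tinagl1* (0.207), *Col15a1* (0.384), *Bcam* (0.444), *Sparc* (0.592) and *Col4a1* (0.611) lower. These values too are for the whole class, with its unequal part of *Fabp7* cluster cells.

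Tenocyte-like cells had 2 of 21 higher, *Hmcn1* (335 and 996, ratio 2.97) and *Col4a2* (1.53), and 9 lower, with *Itga6* (0.286), *Itga2* (0.408), *Fbln2* (0.455), *Lama3* (0.505), *Itga1* (0.517) and *Npnt* (0.593) over 50 UMIs, where 11.4% and 13.7% of all genes were past the threshold. Chondrocyte-like cells had 1 of 14 higher, *Ntn4* (2.18), and 3 lower, *Fbln2* (0.249), *Col15a1* (0.530) and *Col4a1* (0.557), against 13.5% and 16.8% of all genes. Satellite cell-like cells had 2 of 11 higher, *Fbln2* (2.08) and *Ntn4* (1.88), and 2 lower, *Sparc* (0.368) and *Col15a1* (0.582), against 17.1% and 20.3%. In the blood classes 13 of 15 genes were lower in neutrophil-like cells, against 25.2% of all genes, and 7 of 11 in B cell-like cells, against 12.4%.

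The genes whose levels followed each member most closely were taken over 21 points, the classes of each library with at least 50 cells, by Pearson's r of log2(CPM + 10) among 5452 genes. *Lama5* was closest to *Bcam* (r = 0.973), *Hspg2* to *Wwtr1* (0.977), *Lamb2* to *Tgfb1i1* (0.968), *Lamb1* to *Prrg3* (0.954) and *Lama4* to *Timp3* (0.949). *Lama2* was closest to *Pknox2* (0.947), *Nid1* to *Fbln5* (0.937), *Nid2* to *Colgalt2* (0.930) and *Lamc1* to *Mat2a* (0.912). *Lamb1* was the third gene for *Nid1* (0.907). The points share libraries and cell types, so these values describe a pattern.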

How the data were processed

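Droplet 3′ libraries of dissociated mouse TMJ were prepared from 1 PBS and 1 CFA pool and the authors deposited raw UMI counts per gene and barcode, made with Cell Ranger 7.0.1 on mm10 per the submitters' processing notes. The annotation release and whether intronic reads were counted are not given in the sources used here. Cell Ranger of that series counts introns unless told not to, which adds UMIs to long genes such as *Lama2*, and counts were not divided by length. The labels and the study's methods differ on the enzymes, digestion time and kit version used, the labels giving 30 min of digestion with collagenase (3 mg/ml) plus dispase (4 mg/ml).

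Cells were normalized with SCTransform and integrated in Seurat 5.3.0 (R 4.3.3) with 3000 genes, 200 principal components and a resolution of 1.5, leaving out the members and the wider list (41 genes). Of 36 clusters, 29 were named where at least 3 markers of a class were detected in 25% of cells and 2-fold above the rest, and 7 stayed unnamed, among them a low-UMI cluster (median 1190 UMIs) led by *Ctla2a*. Markers of an endothelial, fibroblast or Schwann subtype were counted for their own class, a rule set after a first naming. Counts were summed per class and library in Python 3.11.15 (numpy 2.4.6, scipy 1.17.1, pandas 2.3.3), with exact 95% Poisson, conditional binomial and Clopper-Pearson intervals, which cover counting error only. The script was tested on simulated counts. No doublets were removed in the values given: Scrublet (scanpy 1.11.5) marked 0.787% of PBS and 0.0498% of CFA cells and so did not work in CFA, and an alternative left out the 5% highest scores.

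The text names all members, the genes of the wider list with a 1.5-fold difference and at least 50 UMIs over both libraries, and the 3 most like genes of each member. The members and lists were chosen with earlier results of these data known. The settings without mixed cells, with the neutrophil-like level subtracted, without the 3 highest cells and with the low-UMI cluster counted as endothelial were chosen after seeing the data. Promoter windows are RefSeq's on GRCm38.p6.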

Additional observations from a re-analysis of the deposited data

Results flagged for a closer look

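The summed *Lama2* counts gave CFA to PBS ratios on opposite sides of 1, at 2.20 in tenocyte-like, 0.520 in chondrocyte-like and 0.531 in endothelial-like cells. The tenocyte ratio was 1.11 without the 3 highest cells and the endothelial ratio 2.13 without mixed cells. The chondrocyte ratio was 1.55 as a mean over cells, 0.453 without mixed cells and 0.530 without the 3 highest cells. A resolution of 0.8 gave 1.44, in a larger class with no tenocyte-like class named beside it. No difference in direction is read from these ratios. Among the endothelial subsets the *Lama2* ratio was 3.39 in arterial and 0.0561 in venular cells, on 10 and 38 UMIs in the first and 66 and 7 in the second. In PBS 65 of the 66 venular UMIs, and in CFA 27 of the 38 arterial UMIs, lay in mixed cells, and without mixed cells the venular ratio was 1.33.

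*Lamb1* was on opposite sides of 1 in the endothelial subsets, at 1.55 in venular, 0.501 in arterial and 0.495 in capillary cells. Without mixed cells these ratios were 1.56, 0.552 and 0.488, and with cells thinned to 1000 UMIs they were 0.958, 0.739 and 0.583. With 1 library per condition, no difference between classes was tested.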

How the results depend on the processing

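No paired analysis was possible because each condition is 1 library. Of 1503 ratios recomputed under the alternatives, 1268 moved by less than their counting interval, 222 moved further, and 13 with a call changed sides. The count of 2 member and class pairs higher in CFA became 1 with each cell classed by its own markers, 1 at a resolution of 0.8, 1 with no hemoglobin limit, 1 with cells thinned to 1000 UMIs, 10 with the neutrophil-like level subtracted and 6 without mixed cells, and it was 3 without the 5% highest doublet scores, with the median ratio of genes and as a mean over cells. The 26 lower became 16, 16 and 16 with cells classed by their markers, without the 5% highest doublet scores and without mixed cells, 8 when thinned, 2 with subtraction, 40 with no minimum of UMIs and 13 at a 2-fold threshold. Subtraction moves ratios upward by construction. The causes were otherwise not tested, apart from the smaller number of pairs that fewer cells and thinning leave.

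The ratios that changed sides were *Nid1* in B cell-like cells (1.22 without the highest doublet scores and 1.22 without mixed cells), *Lama5* in Schwann-like cells (1.5 with subtraction), *Lama2* in chondrocyte-like cells (1.44 at a resolution of 0.8, where no tenocyte-like class was named, and 1.55 as a mean over cells), *Lamc1* in chondrocyte-like cells (2.49 with subtraction), *Lama2* in endothelial-like cells (2.13 without mixed cells), *Lama2* in neutrophil-like cells (1.66 without mixed cells), *Nid2* in the mural cluster led by *Myh11* (8.24 with subtraction and 1.5 without mixed cells), *Lama2* in venular cells (1.15 thinned and 1.33 without mixed cells) and *Lamb1* in venular cells (0.958 thinned). Some of these rest on very few UMIs. In PBS, mixed cells held 21 of 22 *Nid1* UMIs of B cell-like cells and 86 of 87 *Lama2* UMIs of neutrophil-like cells. They also held 65 of 66 *Lama2* UMIs of venular cells and 13 of 15 *Nid2* UMIs of the *Myh11* cluster. No direction is read from those ratios without mixed cells.

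Of the alpha chain shares, *Lama4* in chondrocyte-like cells was 23.0% in PBS and 19.1% in CFA at a resolution of 0.8. There the class had 212 and 195 cells, and no tenocyte-like class was named. With no hemoglobin limit the share was 39.3% and 44%, in a class of 272 and 188 cells. It was 72.5% in PBS without the highest doublet scores and 57.5% in CFA as a mean over cells. *Lama4* in PBS endothelial-like cells was 70.7% with cells classed by their markers, 77.0% as a mean over cells and 76.8% without mixed cells, and 61.9% in CFA as a mean over cells. *Lama2* in PBS fibroblast-like cells was 74.9% with cells classed by markers, 75.8% at a resolution of 0.8, 76.1% with no hemoglobin limit, 80.0% as a mean over cells and 82.2% thinned, and in CFA 67.4% with no hemoglobin limit, 77.9% as a mean over cells and 78.3% thinned. In mural-like cells *Lama4* in PBS was 34.7% as a mean over cells, 32.4% thinned and 34.3% without mixed cells, and *Lama2* in CFA was 34.5% with cells classed by markers, 34.4% without the highest doublet scores, 48.3% as a mean over cells and 52.0% thinned. *Lama2* in CFA satellite cell-like cells was 97.0% with no hemoglobin limit and 99.5% thinned. In tenocyte-like cells *Lama2* was 89.5% in PBS with cells classed by markers, 85.8% in PBS without mixed cells and 85.2% in CFA as a mean over cells.

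Depth limited members with few UMIs: 15 of 81 pairs were under 20 UMIs and were not compared.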

Other observations

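Classes with too few cells for a comparison had member levels of their own. In perineurial-like cells, which sheathe nerve fascicles (13 PBS and 8 CFA cells), *Lama2* was at 849 UMIs per 1000000 (CPM) in PBS (95% Poisson interval 659 to 1076) and 1675 in CFA (1301 to 2124), *Lama4* at 824 and 689.8, *Nid1* at 624 and 567 and *Lamc1* at 374 and 961. Lymphatic-like cells (18 and 12 cells) had *Lama4* at 761 (659 to 874) and 845 (713 to 994), *Lamb1* at 231 and 151 and *Nid1* at 265 and 198, and no *Lama2* UMI in either library. Osteoblast- or osteocyte-like cells (35 and 28 cells) had *Hspg2* at 139 and 144 and *Lama2* at 105 and 34.3.

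*Lamc1* had more UMIs than the other members in several CFA blood cell classes. T or NK cell-like cells had 3 *Lamc1* UMIs in 11 PBS cells and 87 in 42 CFA cells, or 24.2 (4.99 to 70.7) and 380.1 (304 to 469) CPM, and *Lama2* and *Hspg2* were each at 32.2 in PBS and at 4.37 and 13.1 in CFA. In CFA macrophage-like cells (303 cells) *Lamc1* was at 70.9 and the other members at 6.67 or less, and in CFA osteoclast-like macrophage-like cells (304 cells) it was at 63.6 and the others at 2.5 or less.

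Of the clusters left without a name, the one led by *Prg4*, the lubricin gene, had 30 PBS and 6 CFA cells, with *Hspg2* at 299 and 185 and *Lama4* at 245 and 111. The cluster led by *Gpc5* (11 and 58 cells) had *Lama2* at 94.3 and 192 and *Nid2* at 23.6 and 94.1. The low-UMI cluster led by *Ctla2a* (46 and 199 cells) had *Hspg2* at 547 and 327 and *Lama2* at 357 and 66.5.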
